A study of Mus musculus with 4 samples.

Results

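The genes described here are the writers and erasers of DNA methylation: the methyltransferase genes Dnmt1, Dnmt3a and Dnmt3b, the maintenance cofactor gene Uhrf1, and the dioxygenase genes Tet1, Tet2 and Tet3. They were chosen by name, and all 7 were among the 19938 genes measured. RNA levels came from 4 Affymetrix arrays of sorted mouse bone marrow cells of the LSK gate (lineage-negative, Sca-1-positive, Kit-positive), which holds blood stem cells and the earliest progenitors. On 2 arrays the cells were Hdac3-null LSK/Flt3-, of the genotype Vav-Cre/Hdac3Flox/-, in which a Cre recombinase driven by the blood-wide Vav promoter deletes a floxed Hdac3 allele opposite an allele that is already null. The wild-type LSK/Flt3- and LSK/Flt3+ fractions had 1 array each, called the Flt3- control and the Flt3+ control here. Flt3 is a cytokine receptor that appears as LSK cells gain lymphoid potential. All groups had the C57BL/6 background, and each array held cells pooled from 5 to 30 mice; no source used here gives ages. Whether the null arrays came from separate mice is not stated either, so a p-value reflects the spread of these samples alone, and that spread may be technical.

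DNA methylation in mammals sits almost wholly on cytosines that are followed by guanine, the CpG sites. Dnmt3a and Dnmt3b place new methyl groups, and after each round of replication UHRF1 binds the hemimethylated site and brings in Dnmt1, which copies the mark to the new strand. The TET enzymes oxidise methylcytosine, which starts its removal. In blood stem cells Dnmt1 and Uhrf1 are needed for self-renewal, while loss of Dnmt3a or Tet2 favours stem cell expansion and, in people, marks clonal haematopoiesis and myeloid cancers. Hdac3, a histone deacetylase of corepressor complexes, acts on chromatin by another route, and the study's title names DNA replication and differentiation as the processes that need it.

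Start regions are shown for the genes on which the results turn: Dnmt1 and Uhrf1, the pair that keeps methylation through replication, and Tet1, which stood farthest from its wild-type level. Windows of 300 bases (250 before and 50 after an annotated start) were taken from RefSeq on GRCm38.p6, which held 12 windows for the 7 genes, matched by symbol. E2F factors drive genes of S phase, and their core site was searched on both strands as TTTCCCGC, TTTGGCGC, TTTGCCGC or TTTCGCGC, words that can overlap one another. Only Dnmt1 and Uhrf1 held a match among the 7 genes, in 1 of 3 and 1 of 2 windows, while 2.27% of all 32851 windows held one. Each of these words holds a CpG, and both matching windows were rich in CpG sites, with 33 each (percentile 91.9 of all windows). The share of matches among windows of like CpG content was not tested. The match is in capitals below, at -219 from the start in Dnmt1 (chr9:20952824-20952853, minus strand) and at -185 in Uhrf1 (chr17:56304117-56304146, plus strand). The Dnmt1 window held another match, after the start.
Dnmt1: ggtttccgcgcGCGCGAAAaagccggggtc
Uhrf1: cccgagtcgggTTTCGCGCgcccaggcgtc
The 250 bases before the Tet1 start (chr10:62887325-62887574, minus strand) follow with their 15 CpG sites, the sites on which the enzymes act, in capitals.
Tet1: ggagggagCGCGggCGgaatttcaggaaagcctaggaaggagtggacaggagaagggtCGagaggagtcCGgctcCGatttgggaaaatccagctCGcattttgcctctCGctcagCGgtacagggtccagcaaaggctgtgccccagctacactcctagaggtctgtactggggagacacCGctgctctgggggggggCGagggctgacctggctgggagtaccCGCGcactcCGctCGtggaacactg
The 12 windows held between 2 CpG sites (1 of the Dnmt1 windows) and 57 (Tet2), against a median of 7 over all windows. The single Tet1 window held 17. A sequence match or a CpG count describes these letters, and the arrays measured neither binding nor methylation.

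Values are RMA log2 levels as the authors deposited them, so that a difference of 1 is 2-fold. Levels are compared between arrays for a gene, never between genes, because each probe set has its own brightness. The median over genes was 5.70 and 5.52 on null replicates 1 and 2, 5.50 for the Flt3- control and 5.58 for the Flt3+ control. Null replicate 1 stood apart most: it and replicate 2 differed at least 2-fold in 563 genes, against 219 between the wild-type arrays. Its offset lay in dim genes, with a median difference between null replicates 1 and 2 of 0.22 for genes that averaged below 6 and -0.04 for genes at 6 or above, where all 7 genes lie. Hdac3 itself was at 5.71 and 5.04 on the null arrays against 6.18 and 6.33 on the 2 controls, and no source used here says where its probes lie relative to the deleted part. Xist, the RNA of the inactive X chromosome of females, was at 10.84 and 9.67 against 4.23 and 3.90. Y-linked Kdm5d was at 8.02 and 7.31 against 8.66 and 8.32, so sex-linked RNA moved with genotype. With these arrays a difference in sex cannot be told apart from one in genotype, and its part in the values below was not tested.

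The gate gene Kit was at 10.11 to 10.77 over the arrays and Cd34, a progenitor surface marker, at 9.77 to 10.58, and Ly6a, which encodes Sca-1, was not analysed here. Flt3 RNA stood at 7.84 and 7.02 on the null arrays, 9.18 in the Flt3- control and 10.07 in the Flt3+ control. Markers of other cells moved between the arrays. The 11 granulocyte-monocyte progenitor genes had mean levels of 7.62 and 8.04 on the null arrays against 6.75 and 7.32, with 8 of 11 above the Flt3- control on both, as were 41.3% of all genes (19.9% were below). The 11 lymphoid priming genes had mean levels of 5.34 and 5.03 against 5.88 and 6.61, with 6 of 11 below and 3 above on both. The 9 macrophage genes averaged 4.79 and 4.58 on the null arrays, 4.87 in the Flt3- control and 6.61 in the Flt3+ control. The 9 erythroid genes averaged 6.93 on null replicate 1 against 8.03, 8.13 and 7.66 on null replicate 2 and the 2 controls, and the 6 megakaryocyte genes averaged 6.64, 7.78, 6.67 and 6.59. The 8 mast cell and basophil genes averaged 6.08 and 6.66 on the null arrays against 5.52 and 6.17 on the controls, with 6 of 8 above the Flt3- control on both. The mature neutrophil and monocyte, T and NK cell, and endothelial and stromal lists averaged between 4.59 and 5.60 on the 4 arrays. Of the genes of these lists 1 passed limma's test against the Flt3- control, Ms4a3 of the granulocyte-monocyte progenitor list, which was higher (3.11). Other genes of these lists had large differences without passing, among them Dntt (-3.14), Satb1 (-2.29), Slamf1 (2.18) and Flt3 (-1.75). The 8 gate and stem cell markers measured were split, with 4 above and 4 below the Flt3- control on both null arrays. Besides Slamf1 and Flt3 they included Cd48 (0.94), Mecom (-1.32) and Hlf (-0.70). Against the Flt3+ control Slamf1 and Ms4a3 were higher, and Flt3, Dntt, Il7r, Satb1, Csf1r, Emcn and 4 macrophage genes (C1qc, Mrc1, Cd163 and Adgre1) were lower. In pooled RNA fewer cells of a type and less RNA per cell cannot be told apart, and the part of these shifts in the values below was not tested.

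None of the 7 genes passed the test between null cells and the Flt3- control. That test was limma's moderated fit across all genes with Benjamini-Hochberg adjustment, which called 0.0201% of all genes here, and each of the 7 had an adjusted p of 1. At an unadjusted p under 0.05 the count was also 0 of 7, against 2.4% of all genes. Dnmt3b was above the wild-type array on both null arrays, as were 41.3% of all genes, and Dnmt3a and Tet1 were below it on both, as were 19.9%. Among genes with a mean level of at least 6 these shares were 29.1% and 29.3%, so 1 and 2 of 7 are near the background. The median difference of the 7 genes was -0.14, and that of all genes was 0.09.

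**Figure D1:**
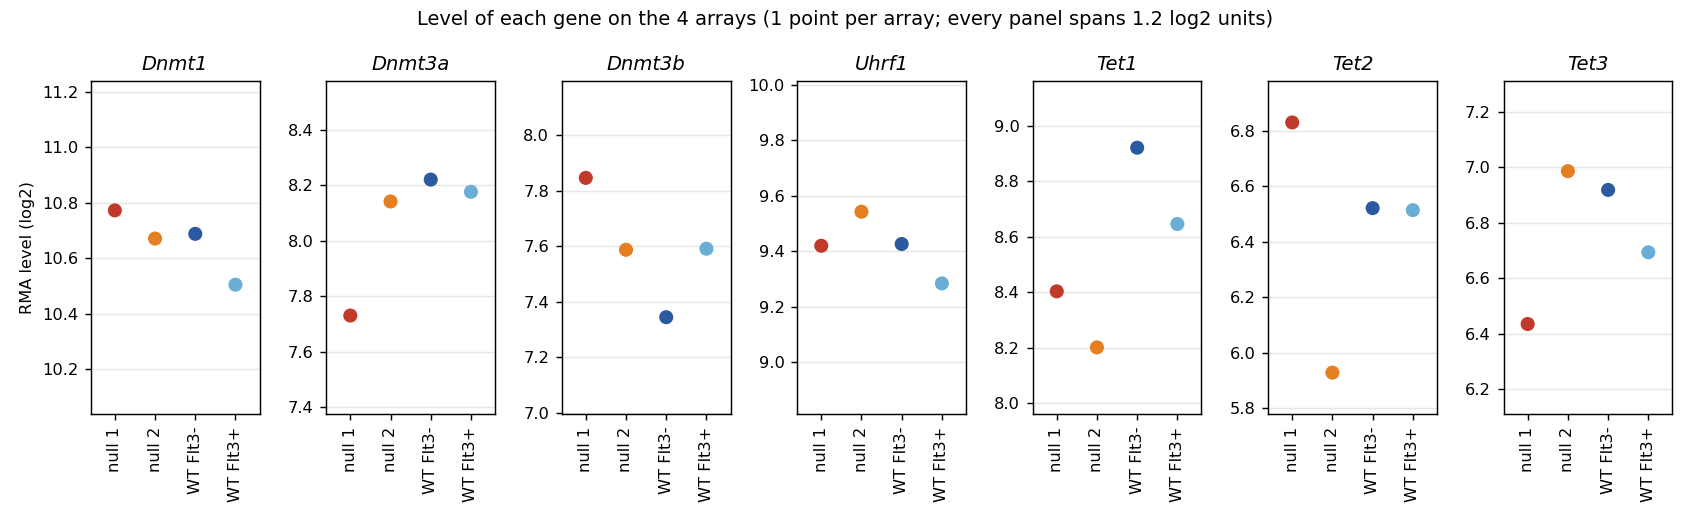
RMA log2 level (vertical axis) of each of the 7 genes on null replicates 1 and 2 and on the wild-type (WT) LSK/Flt3- and LSK/Flt3+ arrays, 1 point per array; each panel spans the same 1.2 log2 units but has its own origin, so heights are not comparable between genes. Dnmt1 and Uhrf1 stay within 0.27 and 0.26 over the 4 arrays, both null arrays lie below both wild-type arrays for Tet1 and Dnmt3a (for Dnmt3a not when array medians are subtracted), and the null arrays lie on either side of the wild-type arrays for Tet2.

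The levels of the maintenance pair stayed within 0.27 (Dnmt1) and 0.26 (Uhrf1) log2 units over the 4 arrays. Dnmt1, the copying methyltransferase, was at 10.77 and 10.67 on null replicates 1 and 2, 10.69 in the Flt3- control and 10.50 in the Flt3+ control. The Flt3- control value lay between the null arrays, while the Flt3+ control value was the lowest of the 4. The difference from the Flt3- control was 0.03 ± 0.31 (SE, 2 null arrays against 1; limma adjusted p = 1), with a 95% interval from -0.66 to 0.73, and its sign turned (-0.083) when array medians were subtracted. Uhrf1, which reads the hemimethylated site, was at 9.42 and 9.54 on the null arrays, 9.43 in the Flt3- control and 9.28 in the Flt3+ control. Here too the Flt3- control value lay between the null arrays. The difference was 0.055 ± 0.34 (SE; limma adjusted p = 1; 95% interval -0.70 to 0.81), and subtracting array medians gave -0.062. For both genes the interval leaves out a 2-fold change in either direction, under the assumption of the fit that a lone wild-type array varies as the null arrays do.

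The enzymes that set new methylation went opposite ways by small amounts, and both 95% intervals included 0. Dnmt3a was at 7.73 and 8.14 on the null arrays, 8.22 in the Flt3- control and 8.18 in the Flt3+ control. Null replicate 1 was the low array and replicate 2 lay 0.08 under the Flt3- control, so the difference of -0.28 ± 0.37 (SE; limma adjusted p = 1) rested mainly on replicate 1. Dnmt3b was at 7.85 and 7.59 on the null arrays, 7.34 in the Flt3- control and 7.59 in the Flt3+ control. The Flt3- control was the lowest of the 4, and null replicate 2 and the Flt3+ control had nearly the same level. The difference from the Flt3- control was 0.37 ± 0.36 (SE; limma adjusted p = 1), with a 95% interval from -0.44 to 1.18, which does not leave out a 2-fold rise. The interval for Dnmt3a, -1.12 to 0.55, does not leave out a 2-fold fall.

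Among the erasers Tet1 had the largest difference of the 7 genes. It was at 8.40 and 8.20 on null replicates 1 and 2, 8.92 in the Flt3- control and 8.65 in the Flt3+ control. Both null arrays lay below both wild-type arrays, which held for 11.7% of all genes and for 16.9% of those with a mean level of at least 6. The null mean was 1.54-fold under the Flt3- control, a log2 difference of -0.62 ± 0.36 (SE; limma adjusted p = 1, unadjusted p = 0.113), with differences of -0.52 and -0.72 on the null arrays taken singly. That difference stood at percentile 2.49 of all genes and 4.24 of those averaging at least 6, and its 95% interval ran from -1.41 to 0.18.

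Tet1 was also covered by 2 further probe sets, which were not used for its level. One was at 7.77 and 7.57 on the null arrays against 8.20 and 7.91 on the 2 controls. It put the arrays in the same order as the probe set used. The other was at 7.11 and 6.23 against 7.44 and 6.85. Both null arrays were again below the Flt3- control, but null replicate 1 was above the Flt3+ control. The 3 differences from the Flt3- control were -0.62, -0.53 and -0.77. The probe sets were hybridised with the same RNA, so they are not replicates of the condition.

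Tet2, the TET gene most often mutated in blood cancers, was the one of the 7 on which the null arrays disagreed most. It was at 6.83 and 5.93 on null replicates 1 and 2, 6.52 in the Flt3- control and 6.51 in the Flt3+ control. The null arrays lay on opposite sides of the wild-type arrays, 0.90 apart, a gap larger than that of most genes (percentile 95.7). The difference of their mean from the Flt3- control was -0.14 ± 0.42 (SE; limma adjusted p = 1), less than the spread between the replicates.

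Tet3 gave no stable order. The probe set used was at 6.44 and 6.99 on the null arrays, 6.92 in the Flt3- control and 6.69 in the Flt3+ control. The other probe set was at 7.17 and 6.39 against 6.84 and 6.54. The null arrays swapped places between the probe sets, replicate 1 being lowest of the 4 by the probe set used and highest by the other. The difference from the Flt3- control was -0.21 ± 0.38 (SE; limma adjusted p = 1) with the probe set used and -0.06 with the other.

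**Figure D2:**
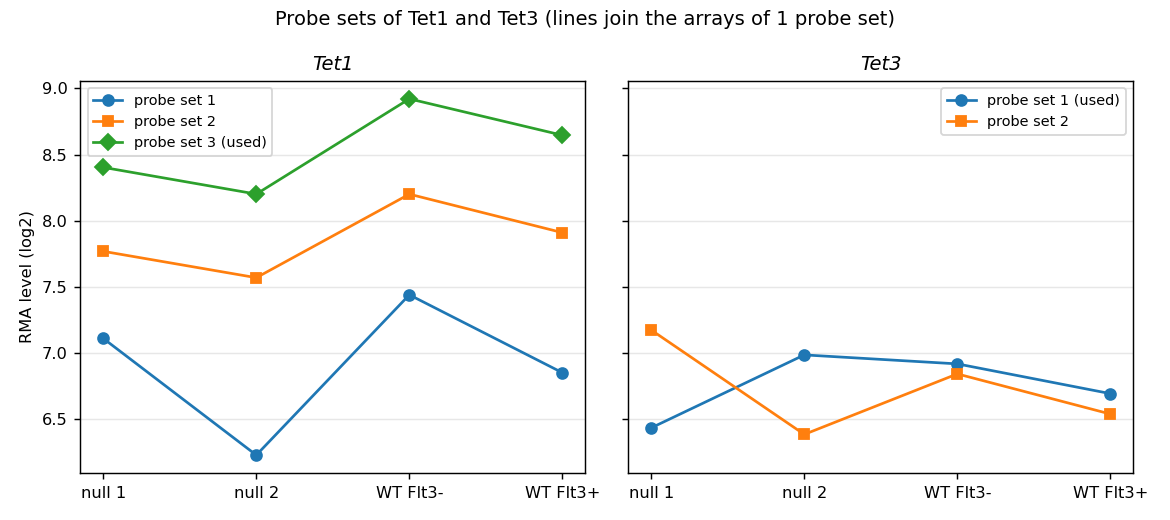
RMA log2 level (vertical axis) of the 3 probe sets of Tet1 and the 2 of Tet3 on the 4 arrays; each line joins the arrays of 1 probe set, and "used" marks the probe set with the highest mean. All Tet1 probe sets are highest in the Flt3- control and lowest on null replicate 2, except that the order between null replicate 1 and the Flt3+ control differs in 1 of them, whereas the Tet3 probe sets give opposite orders for the null arrays.

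The null arrays were also set against the Flt3+ control, a comparison that holds the difference of sorted fraction as well as genotype and shares its null arrays with the one above. None of the 7 genes passed (limma, adjusted p = 1 for each; 0.316% of all genes were called), and 0 of 7 had an unadjusted p under 0.05, against 3.44% of all genes. Dnmt1 and Uhrf1 were above the Flt3+ control on both null arrays, as were 35% of all genes, with differences of 0.22 ± 0.31 and 0.20 ± 0.34 (SE). Tet1 and Dnmt3a were below on both, as were 25.1% of all genes, with differences of -0.34 ± 0.36 and -0.24 ± 0.37 (SE); for Dnmt3a this held by only 0.03 on null replicate 2 and turned to 0.017 above when array medians were subtracted. Dnmt3b was at 0.13 ± 0.36, Tet2 at -0.13 ± 0.42 and Tet3 at 0.02 ± 0.38 (SE), and Tet3 turned to -0.020 when array medians were subtracted. The median of the 7 was 0.02, against 0.05 over all genes.

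**Figure D3:**
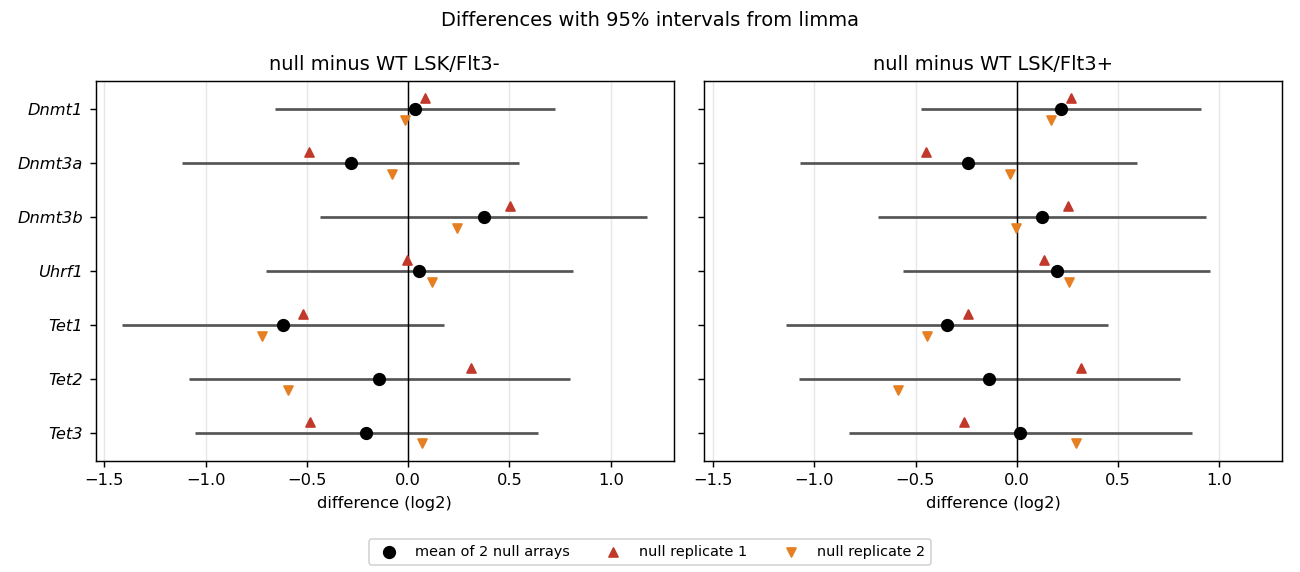
Log2 difference (horizontal axis) of each gene between null cells and the wild-type (WT) LSK/Flt3- array, the Flt3- control (left), or the wild-type LSK/Flt3+ array, the Flt3+ control (right). Black points are the mean of the 2 null arrays minus the wild-type array, bars are 95% intervals from limma, and triangles are the null arrays taken singly; every interval includes 0, and Tet1 lies farthest left in both panels, at -0.62 and -0.34.

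Between the wild-type fractions, with 1 array each and so no test, 0 of 7 genes differed 2-fold (1.1% of all genes did). In LSK/Flt3+ cells 6 of 7 were lower than in LSK/Flt3- cells, as were 43.1% of all genes. The share was 52.2% for genes at a mean level of 6 or above and 60% for those at 8 or above. The count was 6 under quantile normalization and with array medians subtracted too. Their partners, listed below, were lower in LSK/Flt3+ cells for 16 of 19 genes, and the methyl donor genes for 10 of 13, but the demethylation partners were lower for 7 and higher for 12 of 19. The differences were -0.27 for Tet1, -0.22 for Tet3, -0.18 for Dnmt1, -0.14 for Uhrf1, -0.04 for Dnmt3a and -0.0072 for Tet2. Dnmt3b was the exception, at 0.25. The null replicates were 2-fold apart for 0 of 7 genes (2.82% of all genes) and differed by 0.10 for Dnmt1, -0.12 for Uhrf1, -0.41 for Dnmt3a, 0.26 for Dnmt3b, 0.20 for Tet1, 0.90 for Tet2 and -0.55 for Tet3 (replicate 1 minus replicate 2). As deposited, the gap between the fractions was larger than that between the null replicates for Dnmt1, Uhrf1 and Tet1, but Dnmt1 and Tet1 left this set under quantile normalization, and Uhrf1 left it and Dnmt3b joined it when array medians were subtracted. None of the 7 genes ranged over as much as 1 log2 unit across the 4 arrays, so no gene was named for a like pattern.

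The partners of the methylation enzymes were read from a list of 19 genes, all measured. None passed limma's test in either comparison, in either direction. The list median was 0.05 against the Flt3- control, with 5 of 19 above and 4 below on both null arrays (29.1% and 29.3% of genes with a mean level of at least 6), and 0.26 against the Flt3+ control, with 10 above and 3 below. Of all genes 35% were above and 25.1% below the Flt3+ control on both. Hells and Cdca7, which form a chromatin remodelling complex that DNA methylation needs, were at 9.75 and 9.67 against 9.44 and 9.23, and at 10.39 and 10.60 against 10.21 and 10.14. Both null arrays were above both controls for each, as they were for 23% of all genes, with differences from the Flt3- control of 0.27 ± 0.34 and 0.28 ± 0.32 (SE; limma adjusted p = 1), less than 1 SE. Lig1, the DNA ligase whose methylated form recruits UHRF1 to forks, was at 8.79 and 9.12 against 9.49 and 8.87, so that the Flt3- control was highest. Zfp57, a zinc finger protein that guards methylation at imprinted loci, was at 6.03 and 5.22 against 5.11 and 4.83.

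The methyl-CpG readers analysed here were 7 genes. None passed in either comparison, and the medians were -0.10 and 0.12 against the Flt3- and Flt3+ controls. Mbd1, a reader that represses methylated promoters, had the largest difference of these 7 readers. It was above both wild-type arrays on both null arrays, as were 23% of all genes, at 7.24 and 7.47 against 6.82 and 6.89 (0.53 ± 0.36 and 0.46 ± 0.36, SE; limma adjusted p = 1). Zbtb4 was at 0.38 from the Flt3- control, Mbd2, which recruits the NuRD deacetylase complex, at -0.12 and Zbtb33 at -0.11. Mbd3 was at -0.43, but its null arrays disagreed, at 6.00 and 6.90 against 6.88 and 6.86 on the Flt3- and Flt3+ controls.

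The demethylation partners comprised TET cofactors, oxidation and base excision repair genes and the Gadd45 family. Of 22 genes 19 were measured and 0 passed in either comparison, with medians of 0.01 and -0.05. The largest same-sided differences were those of Neil2, a glycosylase that helps clear oxidised bases (0.49 ± 0.29, SE), Apobec1, a cytidine deaminase (-0.46 ± 0.33), Gadd45a, a stress protein linked to active demethylation (-0.45 ± 0.35), and Cxxc4, which binds and restrains Tet2 (0.45 ± 0.31), each against the Flt3- control and each with a limma adjusted p of 1. Apobec1 was at 5.59 and 5.64 on the null arrays, 6.07 in the Flt3- control and 6.63 in the Flt3+ control, which was the highest array. Neil2 and Cxxc4 were dim, at 4.56 and 4.30 against 3.94 and 3.95, and at 5.14 and 4.94 against 4.60 and 4.96. Of genes with a mean level of 4 to 6, 50.7% were above the Flt3- control on both null arrays. Idh1 and Idh2, whose product alpha-ketoglutarate the TET enzymes use, were at 0.07 and 0.01 from the Flt3- control, but the null arrays stood at 7.57 and 8.79 for Idh1 and at 9.21 and 9.82 for Idh2, on either side of the Flt3- control (8.11 and 9.50).

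The methyl donor cycle supplies S-adenosylmethionine and the folate units behind it. Of 17 genes 13 were measured, 0 passed in either comparison, and the medians were -0.03 and 0.08. Against the Flt3- control 4 of 13 were above and 4 below on both null arrays. The shares were 41.3% and 19.9% of all genes, and 29.1% and 29.3% of those with a mean level of at least 6. Ahcyl2, a relative of the enzyme that clears S-adenosylhomocysteine, was at 6.85 and 6.96 against 7.57 and 7.20 (-0.67 ± 0.35 from the Flt3- control, SE; limma adjusted p = 1). It was lower on both null arrays than on either wild-type array, as were 11.7% of all genes and 16.9% of those with a mean level of at least 6. The folate genes Mthfd2, Shmt1 and Tyms were above both wild-type arrays on both null arrays, as were 23% of all genes. Their differences were 0.55 ± 0.36, 0.44 ± 0.36 and 0.40 ± 0.35 (SE) from the Flt3- control and 0.77, 0.45 and 0.44 from the Flt3+ control. None of the 3 passed (limma adjusted p = 1), and other folate genes did not share their side: Mthfd1 was below the Flt3- control on both null arrays (-0.38), and for Shmt2, Mtr and Mtrr the null arrays lay on either side of it.

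Because Dnmt1 and Uhrf1 rise with S phase, 41 DNA replication and 25 mitosis genes were set beside them. None of either list passed in either comparison, and 0 had an unadjusted p under 0.05. The replication median was -0.04 against the Flt3- control (-0.17 on null replicate 1 and 0.06 on replicate 2) and 0.03 against the Flt3+ control. On both null arrays 11 of 41 were above and 15 below the Flt3- control, and 14 were above and 6 below the Flt3+ control. Of all genes at a mean level of 8 or above, 23.5% were above and 30.7% below the Flt3- control on both. For the Flt3+ control these shares were 34.9% and 24.3%. Between the wild-type arrays 26 of 41 replication genes and 8 of 25 mitosis genes were lower in LSK/Flt3+ cells, against 60% of genes at a mean level of 8 or above. The mitosis medians were -0.15 and -0.22, with 10 of 25 and 16 of 25 genes below on both null arrays, against 30.7% and 24.3% of all genes at a mean level of 8 or above. Of the mitosis genes on one side of the Flt3- control on both null arrays, those farthest from it were Cdk1, the mitotic kinase (0.47), its cyclin partner gene Ccna2 (-0.46), the kinetochore gene Spc25 (-0.40) and the spindle gene Tpx2 (-0.33). Pcna, the sliding clamp that binds Dnmt1 at forks, was at 11.51 and 11.57 on the null arrays against 11.67 and 11.68. The proliferation marker Mki67 was at 9.93 and 9.87 against 9.89 and 9.96. The replication genes ran from -0.71 for Rpa3, a subunit of the single-strand binding complex, to 0.61 for Cdt1, a licensing factor, each against the Flt3- control. Orc6 of the origin recognition complex was at -0.57 and Lig1 at -0.53.

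**Figure D4:**
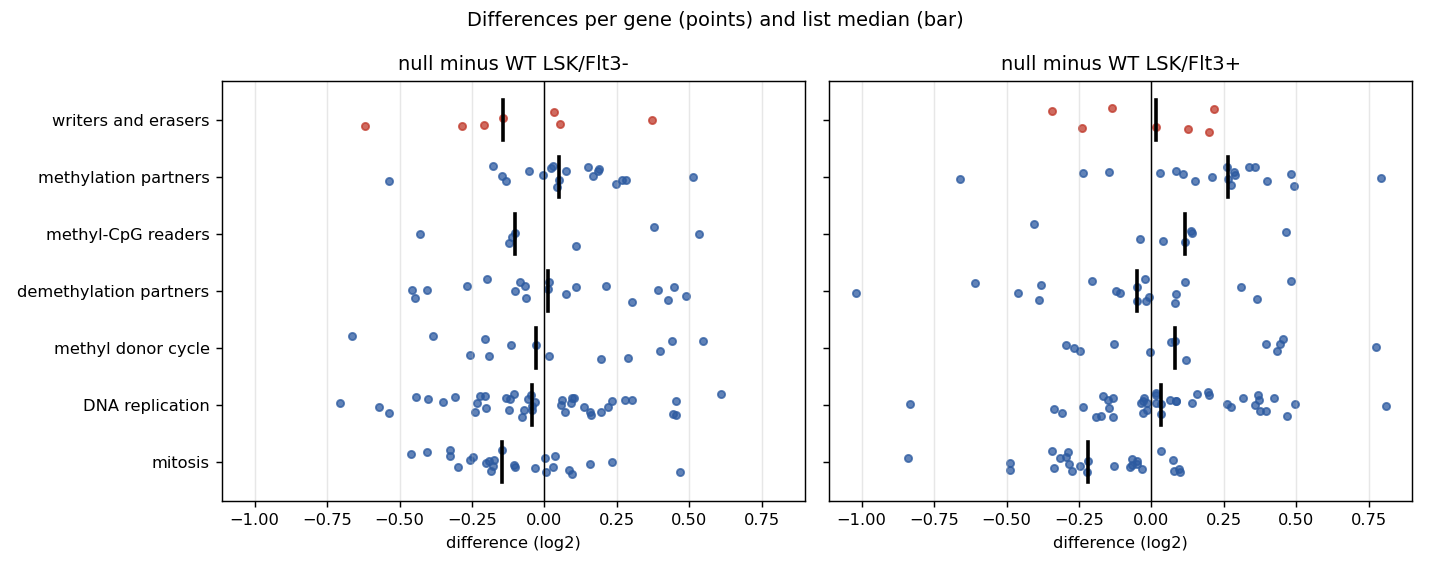
Log2 difference (horizontal axis) between null cells and the wild-type (WT) LSK/Flt3- array, the Flt3- control (left), or the wild-type LSK/Flt3+ array, the Flt3+ control (right) for the 7 writers and erasers (red) and the genes of 6 further lists (blue); each point is 1 gene, placed at random height within its row, and black bars are list medians. The medians on the left lie between -0.15 (mitosis) and 0.05 (methylation partners), and no gene shown passed limma's test.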

How the data were processed

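The authors deposited log2 values for each probe set; per the submitters' processing notes they were produced with RMA in affy 1.23. No genome build or detection call is given in the sources used here. The platform annotation assigns 1 gene to 21789 of the 35556 probe sets, several to 1621 and none to 12146, and only the first kind was used. A gene's level is that of its brightest probe set by the mean of the 4 arrays. A linear model with 3 groups was fitted to the 4 arrays in limma 3.58.1 (R 4.3.3) with a trended prior. The null pair supplies its 1 residual degree of freedom, beside 9.01 prior ones, so the lone control arrays borrow the spread of the null arrays. Tests were two-sided, with Benjamini-Hochberg adjustment over 19938 genes at 0.05, and intervals are 95%. Few arrays limit the precision (median SE 0.34). Alternatives changed the scaling, probe set rule, prior, filter and samples. The 7 genes and the other lists were chosen with earlier results of these data known. Besides the 7 genes, up to 4 genes per list were named by the largest same-sided difference, and others for their role or for standing at a list's edge, after their values were seen.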

Additional observations from a re-analysis of the deposited data

How the results depend on the processing

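None of the 7 genes passed limma's threshold under any of the 8 alternative fits against the Flt3- control or the 6 against the Flt3+ control, and the smallest adjusted p was 0.879, for Tet1 with both wild-type arrays as 1 group (-0.48). Of 98 values so obtained, 95 kept their sign, and 3 turned when array medians were subtracted: Dnmt1 (-0.083) and Uhrf1 (-0.062) against the Flt3- control and Tet3 (-0.020) against the Flt3+ control. That setting moved the median of all genes against the Flt3- control from 0.09 to -0.02, by its own construction. Against the Flt3- control alone Tet1 ranged from -0.74 with array medians subtracted to -0.59 under quantile normalization. The fit with both wild-type arrays as 1 group, counted among the 8, set the null arrays against both controls, and there Tet1 was at -0.48. With 1 null array left out there is no residual degree of freedom and so no test; of 28 such values 7 had the opposite sign, and Tet1 was at -0.72 without replicate 1 and -0.52 without replicate 2. The genes below the Flt3- control on both null arrays were 2, 2 under quantile normalization and 3 with medians subtracted. No gene of 7 was 2-fold apart between the wild-type arrays under any of 4 settings. Over all genes the comparison of null cells with the Flt3- control called 4 higher and 0 lower, 0 each way after quantile normalization, 2 and 0 with medians subtracted, and 12 and 13 with a robust prior. Against the Flt3+ control it called 7 and 56, 10 and 89 with medians subtracted, 15 and 99 with a robust prior, and 5 and 17 among the 8418 genes with a mean of at least 6. No paired analysis was possible because only the null group has replicate numbers.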

Other observations

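Germline genes such as Dazl and Sycp3 are kept silent in body tissues by promoter methylation, and 19 of them were read as a group that the writers and erasers act on. All were dim, with mean levels of 4.05 and 3.80 on the null arrays, 3.70 in the Flt3- control and 3.83 in the Flt3+ control. Some of them averaged below 4 and others between 4 and 6, so the shares of both levels are given. Against the Flt3- control 14 of 19 were above on both null arrays, compared with 41.3% of all genes, 49.1% of those below 4 and 50.7% of those at 4 to 6. The median was 0.23 over both null arrays, 0.47 for replicate 1 and 0.04 for replicate 2. Against the Flt3+ control 6 of 19 were above on both, and the median was 0.06. The shares were 32% of genes below 4 and 38.5% of those at 4 to 6. Between the wild-type arrays 15 of 19 were higher and 4 lower in LSK/Flt3+ cells, where 33.2% of genes below 4 and 37.7% of those at 4 to 6 were lower. None passed limma's test in either comparison, and at an unadjusted p under 0.05 there were 2 in each, against 2.4% and 3.44% of all genes. One of these was Sycp1, a protein of the meiotic synaptonemal complex, at 4.70 and 4.62 on the null arrays against 3.33 and 3.42. The other was Ddx4, a germ cell RNA helicase, which went the opposite way, at 4.05 and 3.85 against 4.86 and 5.02. No source used here says whether such dim signals stand above background.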
